A study of Mus musculus with 22 samples.

Results

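The 10 genes described here are immediate early genes: Egr1, Nr4a1, Klf2, Klf4, Klf6, Dusp1, Ier2, Btg2, Zfp36 and Atf3. They were taken by symbol from the raw count tables of nuclei, which lists 20668 genes, and of whole cells, which lists 16304. All 10 symbols have a row in both. The choice of symbols was made with earlier results of these data known. The mice were male, leptin-deficient ob/ob animals about 11 weeks old, each of which gave 1 library from the hypothalamus. FGF1 mice received a single injection of 3 µg recombinant human FGF1 into the lateral ventricle of the brain, and vehicle mice received the solvent and were fed the amount the FGF1 mice ate. All groups lack leptin, so the vehicle mice are obese, pair-fed mice and not lean ones. Nuclei from frozen hypothalamic punches were profiled on Day 1 in 3 FGF1 mice, replicates 1, 2 and 3, and 3 vehicle mice. On Day 5 nuclei were profiled in 2 FGF1 and 2 vehicle mice. Whole cells, dissociated with warm enzyme steps and with neurons removed by the authors, were profiled on Day 5 in a separate cohort of 6 FGF1 mice (6, 7, 10, 21, 28 and 36) and 6 vehicle mice (20, 22, 25, 27, 29 and 35). The study states that mice for nuclei came from Jackson Laboratories and mice for whole cells from Janvier Labs. For whole cells the tissue was cut further, to a triangle of the mediobasal hypothalamus.

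Immediate early genes are transcribed within minutes of a stimulus without new protein synthesis, and most of their RNAs are short lived. Growth factors such as FGF1 reach them through receptor tyrosine kinases and the ERK kinases, which act on transcription factors already bound to the promoters, among them SRF with its ternary complex partners and CREB. The same genes also rise when tissue is cut, warmed and digested, which is why a nuclear and a whole-cell preparation of the same tissue can give different levels. The set holds transcription factors (Egr1, the orphan nuclear receptor Nr4a1, the Krüppel-like factors Klf2, Klf4 and Klf6, and the bZIP factor Atf3) and genes that turn signals down. Of the latter, Dusp1 encodes a phosphatase that inactivates MAP kinases, Zfp36 encodes tristetraprolin, which promotes decay of AU-rich mRNAs, and Btg2 encodes an antiproliferative cofactor of mRNA deadenylation. Ier2 encodes a small nuclear protein induced by growth factors.

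Promoters of 3 of the genes that were lower in Day 5 astrocytes are shown first, because they hold the letters to which CREB-type factors bind. The match does not follow the calls of the main fit: Zfp36, also called lower there, holds none of these letters. Btg2, which was not called in that fit, holds the full motif. With the batch of the deposited table as a block, Btg2 was called lower (adjusted p = 0.0127, edgeR). The RefSeq table (GRCm38.p6) has an entry for 8 of the 10 genes (not Egr1 or Ier2). Within the 250 bases before the start the full cyclic AMP response element (CRE), TGACGTCA, was found in Dusp1, at position -143 from the start, and in Btg2, at position -166, and in 1.55% of all 32851 promoters in the table. Its core TGACG, searched on both strands and included in every full CRE, was found in 6 of the 8 genes and in 17.8% of all promoters. Nr4a1 held 4 copies of the core, the most of any of the 8. The bases below precede the RefSeq start and lie in no annotated exon (47 of the 250 Dusp1 bases lay in one and are not shown). The Dusp1 and Nr4a1 stretches lie inside the longer gene spans given below. All are in the sense direction of the gene, 5′ to 3′, and capitals mark the CRE and its core (CGTCA is the core read from the other strand).
Dusp1, chr17:26508520-26508722, minus strand: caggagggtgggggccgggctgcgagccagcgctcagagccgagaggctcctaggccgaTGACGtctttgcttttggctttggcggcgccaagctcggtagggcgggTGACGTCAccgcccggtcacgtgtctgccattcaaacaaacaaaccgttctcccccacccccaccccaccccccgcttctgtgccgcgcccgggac
Klf4, chr4:55532476-55532725, minus strand: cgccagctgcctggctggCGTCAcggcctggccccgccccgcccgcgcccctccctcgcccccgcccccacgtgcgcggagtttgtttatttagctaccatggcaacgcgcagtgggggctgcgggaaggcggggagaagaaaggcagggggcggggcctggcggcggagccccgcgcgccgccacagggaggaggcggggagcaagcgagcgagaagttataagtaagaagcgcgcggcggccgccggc
Nr4a1, chr15:101266596-101266845, plus strand: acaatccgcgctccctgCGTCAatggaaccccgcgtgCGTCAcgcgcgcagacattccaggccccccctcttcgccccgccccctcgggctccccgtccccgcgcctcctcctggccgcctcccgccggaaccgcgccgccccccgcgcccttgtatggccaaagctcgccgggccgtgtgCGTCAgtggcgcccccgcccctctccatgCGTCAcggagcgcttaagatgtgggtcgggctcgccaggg
The CArG box, the SRF motif, was found in Zfp36 alone of the 8 genes, at position -58, and in 1.47% of all promoters. All 250 bases before the RefSeq start of Zfp36 lie within exons of the longer annotated transcripts Zfp36-201 and Zfp36-202. The EGR motif GCGNGGGCG was found in 5 of the 8 genes (Btg2, Klf2, Klf4, Nr4a1 and Zfp36) and in 4.7% of all promoters, and the AP-1 motif TGANTCA in none of the 8 and in 6.75% of all. A match in these windows is a string of letters, and binding was not measured.

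In the mouse annotation of the same build, Dusp1 spans chr17:26505590-26562128 and overlaps 4 other genes, among them Ergic1 on the opposite strand, Zfp36 (chr7:28376784-28380253) overlaps the antisense gene Gm44710, and Atf3 (chr1:191170296-191218039) overlaps Gm24748 on the opposite strand. Reads of such pairs may be hard to assign in nuclei, where introns were counted. Of the others, Klf4 lies at chr4:55527143-55532466, Klf6 at chr13:5861482-5870394, Nr4a1 at chr15:101254269-101274795, Klf2 at chr8:72319033-72321656, Ier2 at chr8:84661331-84662852 and Btg2 at chr1:134075170-134079120.

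The nuclei table holds 24965 barcodes from 10 libraries of 2721087 to 16345981 UMIs (unique molecular identifiers, counted molecules), and that of whole cells holds 54890 barcodes from 12 libraries of 2652897 to 11866269 UMIs. Nuclei carry a cell type given by the authors and no cluster number; whole cells carry a cluster number and no type, so 11 types were named here from marker genes, each to be read as astrocyte-like, OPC-like and so on, and 2 of 20 clusters stayed unnamed. Library quality differed with treatment on Day 1: the median was 2029 to 2816 UMIs per nucleus in FGF1 mice and 3178.5 to 3776 in vehicle mice. Libraries of both groups stood apart: 119 of the 388 astrocyte nuclei of FGF1 mouse 1 and 69 of the 148 of vehicle mouse 2 lay within the study's stated limit of 5% mitochondrial or ribosomal UMIs, against 106 of 113 and 50 of 52 in the other FGF1 mice and 53 of 57 and 43 of 45 in the other vehicle mice. The part of depth and of these nuclei in the Day 1 differences was not tested beyond the values given without such barcodes. Barcode sequences recurred in more than 1 library for 318 nuclei barcodes and 1791 whole-cell barcodes.

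One day after injection, Egr1 and Klf6 were higher in astrocyte nuclei, and Egr1 was higher in tanycyte nuclei, the cells that line the third ventricle. Levels are given as CPM, the UMIs of a gene summed over the nuclei of 1 type in 1 mouse, relative to all UMIs of that sum and scaled with edgeR's TMM factors. Egr1, the early growth response zinc finger factor, stood at 180, 141 and 46.8 CPM in astrocyte nuclei of FGF1 mice 1, 2 and 3 and at 0, 7.74 and 6.53 CPM in the vehicle mice. All 3 FGF1 values lay above all 3 vehicle values, although FGF1 mouse 3 lay far below the other two. The log2 fold change was 4.46 ± 0.742 (SE) with an adjusted p of 0.0135 in edgeR's quasi-likelihood test. These levels rest on 225 UMIs of Egr1 in the FGF1 mice and 5 in the vehicle mice.

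Klf6, a Krüppel-like factor induced by growth factors and injury, was the most even of the Day 1 differences. It stood at 143, 136 and 140 CPM in astrocyte nuclei of the FGF1 mice and at 15.3, 15.5 and 32.6 CPM in those of the vehicle mice. The groups did not overlap, and the log2 fold change was 2.81 ± 0.467 (adjusted p = 0.0132, edgeR). Egr1 and Klf6 were the members with enough counts to be tested in astrocyte nuclei, and both passed the filter on low counts only through the FGF1 mice, so the number called says nothing about the set; of all 6063 genes tested there, 1.39% were called higher.

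In tanycyte nuclei Egr1 stood at 185, 243 and 100 CPM in the FGF1 mice and at 27.1, 0 and 17.9 CPM in the vehicle mice, again without overlap. The log2 fold change was 3.56 ± 0.668 (adjusted p = 0.00555, edgeR), from 84 and 4 UMIs. Egr1 was the only member tested in tanycyte nuclei, again through the counts of the FGF1 mice, and nothing is read from its call about the set; 5.38% of the 3534 genes tested there were called higher. Klf6 in tanycyte nuclei, at 132, 83.8 and 100 CPM against 54.2, 37.4 and 53.8 CPM, also separated the groups but had too few counts to be tested.

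**Figure D1:**
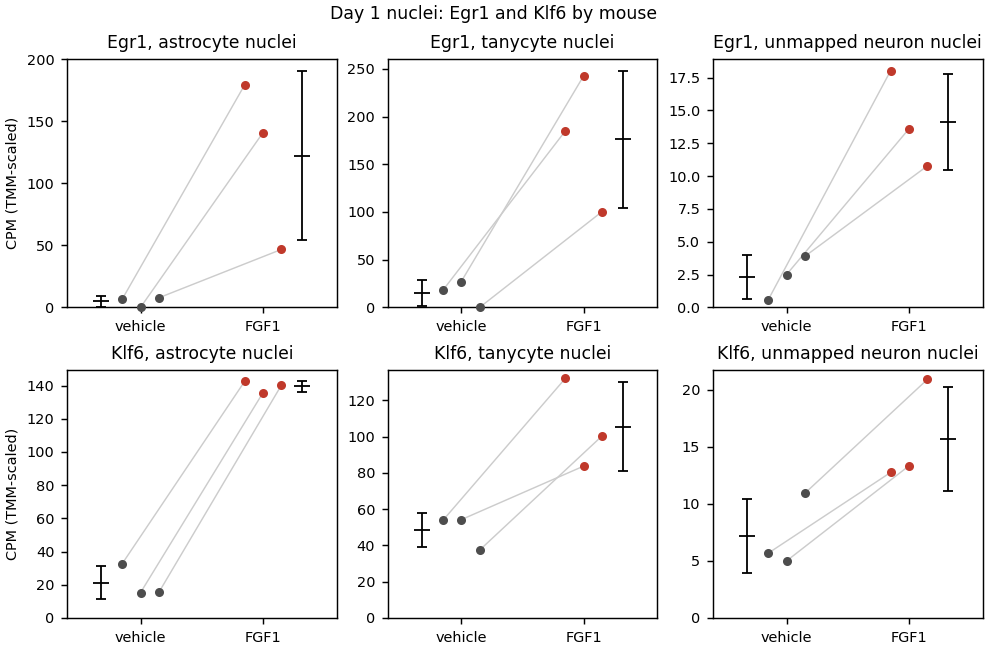
Egr1 (top) and Klf6 (bottom) in Day 1 nuclei of astrocytes, tanycytes and neurons that the authors left without a subtype. Each point is 1 mouse in TMM-scaled CPM, grey lines join the FGF1 and vehicle mouse of 1 batch in the deposited table, and bars give the mean ± SD (n = 3 per group). The FGF1 mice lie above the vehicle mice in each panel, but these genes are shown because they were called in astrocytes. The share of all genes that separate the groups in this way was not counted. Klf6 in tanycytes was not tested, and neither gene passed the test in these neurons.

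With barcodes above the 5% limit left out, Egr1 had too few counts to be tested in either type. The levels without TMM scaling were then 145, 134 and 38.0 CPM for Egr1 in astrocyte nuclei of FGF1 mice 1, 2 and 3 and 0, 6.81 and 6.38 CPM in the vehicle mice. In tanycyte nuclei they were 64.6, 191 and 79.5 CPM against 20.5, 0 and 14.0 CPM for Egr1, so the groups still did not overlap in either type. Klf6 in astrocyte nuclei remained called, with a log2 fold change of 2.86 and an adjusted p of 0.00225 (edgeR). Without FGF1 mouse 1, Klf6 in astrocytes (adjusted p = 0.00948, edgeR) and Egr1 in tanycytes (adjusted p = 0.00896, edgeR) were still called and Egr1 in astrocytes had too few counts to be tested. Leaving out vehicle mouse 1 or vehicle mouse 2 ended both astrocyte calls: the adjusted p of Klf6 became 0.114 or 0.103 and that of Egr1 0.104 or 0.120 (edgeR). With the batch of the deposited table as a block, Klf6 missed the threshold (adjusted p = 0.0736, edgeR) and both Egr1 calls held.

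The other members were sparse in Day 1 nuclei. In neurons left without a subtype, the largest nuclear group, 4 members were tested and none passed (0 of 13681 genes did). Egr1 there was 18.04, 13.6 and 10.8 CPM against 2.499, 3.89 and 0.567 CPM, a log2 fold change of 2.47 ± 0.497 with an unadjusted p of 8.06e-04 and an adjusted p of 0.38 (edgeR); DESeq2 called it, with an adjusted p of 0.0199. In ependymal nuclei, the ciliated cells of the ventricle wall, no member passed the filter on low counts. Egr1 was there 209, 119 and 137 CPM in FGF1 mice and 0 in every vehicle mouse, at least 5.15-fold higher against a floor of 3 counts over the vehicle group. Klf6 in ependymal nuclei was 417, 190 and 410 CPM against 59.3, 31.1 and 28.6 CPM, from 34 and 4 UMIs.

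Egr1 was at 0 in all vehicle mice also in the nuclei the authors labelled COP (committed oligodendrocyte precursors), which held markers of both OPC and COP and where 18 UMIs in FGF1 mice put it at least 6.25-fold higher, and in microglia, where 9 UMIs put it at least 2.54-fold higher. In astrocyte nuclei Zfp36 was 67.5, 55.9 and 26.7 CPM against 20.3, 1.94 and 0 CPM, and Ier2 was 70.7, 5.32 and 13.4 CPM against 0, 1.94 and 0 CPM. One mouse decided the other Ier2 value: in tanycyte nuclei Ier2 was 102, 8.38 and 0 CPM in the FGF1 mice and 0 in every vehicle mouse. Dusp1 (15.2, 15.97 and 20.04 CPM against 10.2, 7.74 and 6.53 CPM) and Btg2 (17.4, 18.6 and 6.68 CPM against 25.4, 36.8 and 19.6 CPM) were low in astrocyte nuclei of both groups and were not tested. Klf2, Klf4, Nr4a1 and Atf3 had at most 9 UMIs per group in astrocyte nuclei. Without the filter on low counts, 10 member values passed in place of 3, among them Zfp36 and Ier2 in astrocytes, Ier2 in tanycytes, and Egr1 and Klf6 in ependymal nuclei.

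Markers of other cells moved with treatment in these nuclei, and their part in the result was not tested. In astrocyte nuclei the summed level of 6 neuron markers was 754 to 1282 CPM in FGF1 mice and 1197 to 1884 CPM in vehicle mice, that of 7 oligodendrocyte markers was 123 to 364 against 445 to 1128 CPM, and that of the 7 astrocyte markers themselves was 1599 to 2252 against 2817 to 3805 CPM, with none of these markers at 0 in either group. In tanycyte nuclei the 10 tanycyte markers summed to 971 to 1260 CPM in FGF1 mice and 1290 to 1990 CPM in vehicle mice, the 6 ependymal markers to 75.6 to 100.3 against 302 to 535 CPM, the 7 astrocyte markers to 602 to 1044 against 1048 to 1472 CPM the 7 oligodendrocyte markers to 118 to 213 against 222 to 350 CPM and the 6 neuron markers to 454 to 831 against 649 to 1220 CPM. Of the oligodendrocyte markers 1 was at 0 in tanycyte nuclei of each group, and none of the others. Other sums were higher after FGF1 in astrocyte nuclei. The 10 tanycyte markers there summed to 178 to 548 CPM (median 334) against 151 to 320 CPM (median 161), with 1 marker at 0 in each group. The 6 COP markers had a median sum of 432 against 279 CPM, with 1 marker at 0 in FGF1 mice. The 6 VLMC markers reached 231 CPM in astrocyte nuclei and 328 CPM in tanycyte nuclei, each in 1 FGF1 mouse, with at most 33.6 CPM in any vehicle mouse. These levels are sums over the nuclei of a type, and shares of nuclei with a UMI of the gene were not counted here.

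On Day 5 the nuclei held little of these genes. Egr1 in astrocyte nuclei was represented by 1 UMI over both FGF1 mice and 2 UMIs over both vehicle mice, and Klf6 by 22 and 11 UMIs. Btg2 had 23 UMIs in astrocyte nuclei of FGF1 mice (15.7 ± 2.85 CPM, n = 2) and 7 in those of vehicle mice (6.68 ± 1.24 CPM), too few to be tested. These Btg2 levels were TMM-scaled in a fit of nuclei and whole cells together. Only 3 member values could be tested, Klf6 and Btg2 in neurons without a subtype and Klf6 in the Nr5a1/Adcyap1 neurons, and none passed by edgeR or by DESeq2 (1 of 3 at an unadjusted p under 0.05: Btg2, 9.84 ± 1.79 against 5.34 ± 0.0575 CPM, mean ± SD, n = 2). Of all genes, 0 of 14599 were called by edgeR in the first of these neuron groups and 26 of 9243 in the other, so these counts are no result about the members. The difference between days was tested itself in 1 fit of all 10 nuclei libraries. None of 10 member values passed by edgeR, with either scaling or without the filter, and no gene of all those tested in these 3 types was called by edgeR, so the count is no result about the members. An unadjusted p under 0.05 was reached by 2 values in astrocyte nuclei. They were Klf6 (log2 difference of the FGF1 effect, Day 5 minus Day 1, -2.71 ± 0.842, adjusted p = 0.442, edgeR) and Egr1 (adjusted p = 0.473, edgeR). With 1 to 2 Egr1 UMIs per group on Day 5, the size of its fitted difference depends on the prior count and is not given.

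In whole-cell astrocytes on Day 5 most of the tested genes were lower after FGF1. Of the 10 members, 8 had enough counts to be tested, all 8 had lower means in FGF1 mice, and 6 were called lower: Dusp1, Zfp36, Klf4, Egr1, Nr4a1 and Ier2. Of all 9830 genes tested in these cells, 6.06% were called lower. The median log2 difference of the 8 members was -1.18, against -0.02 over all genes tested. The members were chosen with earlier results of these data known, so these values are a description. Ier2, which these values include, passed the filter on low counts only through the vehicle mice. Nothing is read from its call about the set. The days also differ in preparation, cohort, mouse supplier and dissected region, so day and assay cannot be told apart. Egr1 was the only member called in both, higher in Day 1 astrocyte nuclei and lower in Day 5 whole-cell astrocytes.

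Dusp1, the MAP kinase phosphatase, had the smallest adjusted p. Its level in astrocytes ran from 11.8 to 28.4 CPM with a median of 23.2 in the 6 FGF1 mice and from 52.6 to 118 CPM with a median of 75.9 in the 6 vehicle mice. No FGF1 mouse reached the lowest vehicle mouse, so Dusp1 is lower in FGF1 in any pairing of the groups, that by batch included. The log2 fold change was -1.88 ± 0.243 (adjusted p = 1.34e-04, edgeR).

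Klf4, a Krüppel-like factor known from reprogramming and from endothelial and barrier biology, ranged from 8.46 to 40.4 CPM (median 20.6) in FGF1 astrocytes and from 46.7 to 132 CPM (median 92.0) in vehicle astrocytes, again with no overlap (log2 fold change -1.79 ± 0.397, adjusted p = 0.0151, edgeR). With the batch as a block its adjusted p was 0.0550 (edgeR). Egr1 ranged from 69.0 to 190 CPM (median 101.4) against 194 to 414 CPM (median 316). The highest FGF1 mouse for Egr1, mouse 10, lay just below the lowest vehicle mouse, mouse 25, and the log2 fold change was -1.29 ± 0.308 (adjusted p = 0.0213, edgeR).

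The remaining 3 calls had groups that overlapped. Zfp36, the mRNA decay factor, was 15.2 to 29.9 CPM (median 21.8) in FGF1 mice and 25.5 to 44.9 CPM (median 41.1) in vehicle mice, with a log2 fold change of -0.80 ± 0.184 (adjusted p = 0.00421, edgeR). Nr4a1, the orphan nuclear receptor, was 6.76 to 20.9 CPM (median 10.3) against 13.04 to 44.1 CPM (median 23.7), with a log2 fold change of -1.07 ± 0.299 (adjusted p = 0.0247, edgeR). Ier2, which passed the filter on low counts only through the vehicle mice, was 5.63 to 16.9 CPM (median 9.36) against 13.04 to 83.0 CPM (median 26.8), with a log2 fold change of -1.84 ± 0.5259 (adjusted p = 0.0449, edgeR). Nr4a1 and Zfp36 were lower in FGF1 in 6 of 6 batches and Ier2 in 5 of 6.

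The Ier2 and Nr4a1 calls were the least firm. The adjusted p of Ier2 stayed under 0.05 in 9 of its 18 alternatives (range 8.53e-04 to 0.101, edgeR and DESeq2) and that of Nr4a1 in 13 of 18 (0.00304 to 0.0651). Leaving out any of the FGF1 mice, or vehicle mouse 20 or 35, ended the Ier2 call, and leaving out FGF1 mouse 6, 7, 21, 28 or 36 ended the Nr4a1 call. The Egr1 call ended without FGF1 mouse 21 (adjusted p = 0.0514, edgeR). Without FGF1 mouse 7 or without FGF1 mouse 21, 4 calls were left over all types in place of 7. Of the 2 tested members that were not called, Btg2 was 30.4 to 78.4 CPM against 54.4 to 138 CPM (log2 fold change -0.63 ± 0.268, adjusted p = 0.156, edgeR, and 0.0127 with the batch as a block) and Klf6 32.1 to 92.1 CPM against 53.4 to 126 CPM (-0.55 ± 0.289, adjusted p = 0.259, edgeR). Klf2 (4.23 to 12.0 against 3.73 to 14.7 CPM) and Atf3 (0 to 7.70 against 0.993 to 7.34 CPM) were too low in astrocytes to be tested.

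**Figure D2:**
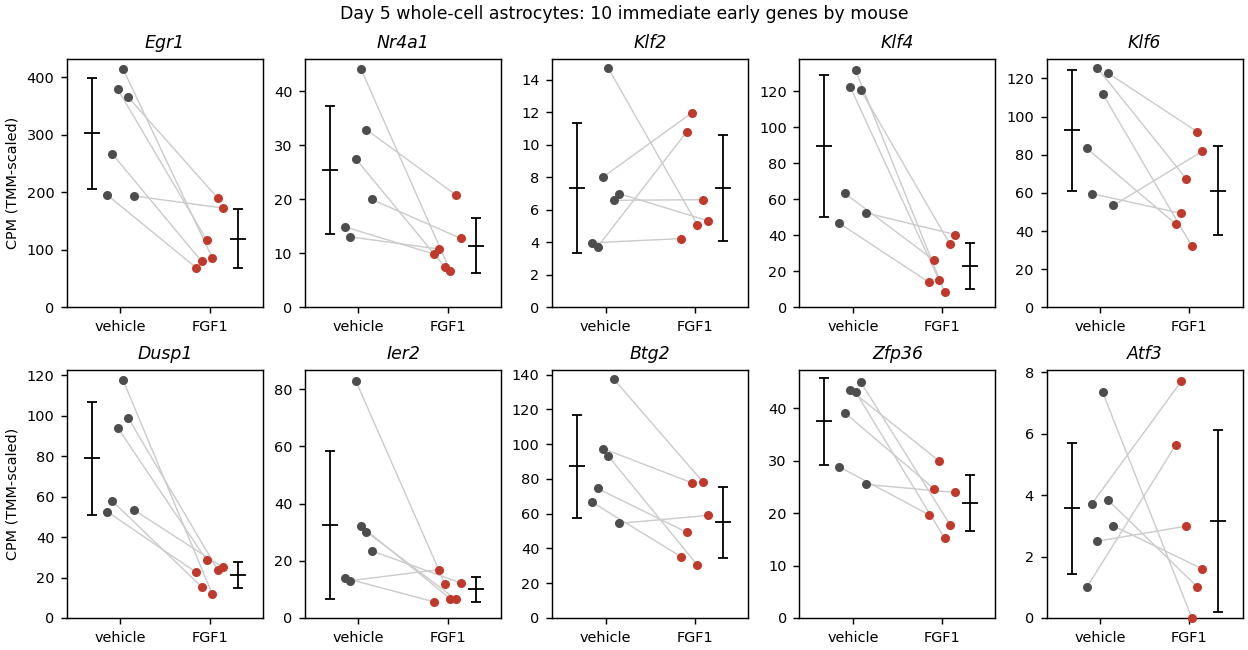
The 10 genes in whole-cell astrocytes on Day 5. Each point is 1 mouse in TMM-scaled CPM, grey lines join the 2 mice of a batch, bars give the mean ± SD (n = 6 per group), and each panel has its own axis from 0. The FGF1 and vehicle mice do not overlap for Dusp1, Klf4 and Egr1, and they overlap throughout for Klf2 and Atf3, which were not tested. The share of all genes without overlap was not counted.

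The astrocytes of the groups came from different clusters, and this moved with the result. Astrocytes are the union of cluster 1 and cluster 4. Cluster 4 held 47.9% to 93.1% of the astrocytes of an FGF1 mouse (median 79.4%) and 3.74% to 18.4% of those of a vehicle mouse (median 6.60%). A mouse's astrocyte sum is therefore mostly cluster 4 in the FGF1 group and mostly cluster 1 in the vehicle group. Since the clusters were made from expression in the same cells, these shares are no result of their own.

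Within a single cluster no member was called by edgeR, from fewer cells: cluster 1 held 1531 cells of FGF1 mice and 7940 of vehicle mice, and cluster 4 held 3412 and 697. Some mice had few of them: FGF1 mouse 21 had 61 cells of cluster 1 with 65326 UMIs, where low levels rest on few UMIs. In cluster 1, Dusp1 ranged from 0 to 42.2 CPM (median 28.5) in FGF1 mice and from 53.4 to 121 CPM (median 84.8) in vehicle mice, which did not overlap. Its log2 fold change was -1.36 ± 0.322, with an unadjusted p of 5.18e-04 and an adjusted p of 0.0866 (edgeR). Klf4 in cluster 1 was 0 to 54.8 CPM against 49.4 to 149 CPM (log2 fold change -1.17 ± 0.449, adjusted p = 0.392, edgeR), and Egr1 40.3 to 323 CPM against 199 to 455 CPM (-0.55 ± 0.353, adjusted p = 0.677, edgeR). Ier2 in cluster 1 was 3.69 to 20.1 CPM against 12.6 to 101.3 CPM, and its log2 fold change of -1.81 ± 0.836 (adjusted p = 0.508, edgeR) was about that over all astrocytes. Of the 8 members tested in cluster 1, 7 had a negative log2 fold change and 2 an unadjusted p under 0.05; 0.182% of the 7679 genes tested there were called lower. DESeq2 called Dusp1 in cluster 1 (adjusted p = 0.0111). With the batch as a block, edgeR called Dusp1 (adjusted p = 4.61e-04), Klf4 (0.00552) and Ier2 (0.00993) lower in cluster 1, where 100 of the 7679 genes were called in either direction.

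In cluster 4, 4 members were tested and none passed by edgeR or DESeq2, where 0.168% of the 5967 genes tested were called lower. Egr1 in cluster 4 was 77.8 to 154 CPM (median 81.1) in FGF1 mice and 109 to 239 CPM (median 141) in vehicle mice, a log2 fold change of -0.58 ± 0.233 with an unadjusted p of 0.0192 and an adjusted p of 0.405 (edgeR). Klf4 was 6.31 to 32.5 CPM against 0 to 82.3 CPM (-0.86 ± 0.390, adjusted p = 0.473, edgeR). In a fit of both clusters with the cluster as a term (limma voom with the mouse as a random effect), Dusp1 was -1.16 ± 0.328 (adjusted p = 0.0633), Klf4 -1.07 ± 0.349 (0.123), Zfp36 -0.61 ± 0.249 (0.248) and Egr1 -0.46 ± 0.229 (0.364) on the log2 scale. None of the 6 members tested in that fit passed, all 6 estimates were negative, and Ier2 and Nr4a1 were too low to be tested; of all 6393 genes in that fit 95 were called in either direction. The part of the cluster make-up in the astrocyte calls was not tested beyond these values.

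**Figure D3:**
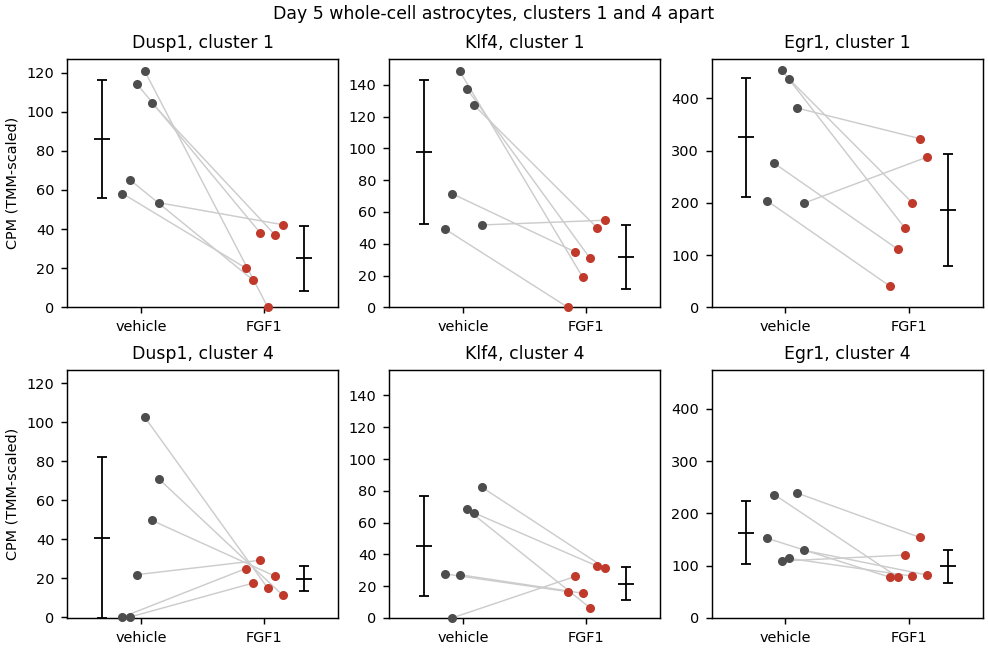
Dusp1, Klf4 and Egr1 in astrocyte cluster 1 (top) and cluster 4 (bottom) of Day 5 whole cells, in TMM-scaled CPM, with 1 point per mouse, grey lines for batches and the mean ± SD (n = 6 per group). The 2 panels of a gene share 1 axis. Dusp1 separates the groups in cluster 1 without overlap, vehicle mice vary widely in cluster 4, and no panel passed the edgeR test. Some FGF1 mice had few cells of cluster 1 (61 in mouse 21). The share of all genes without overlap was not counted.

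Other cells' markers in whole-cell astrocytes also moved with treatment, and their part in the result was not tested. The summed level of 10 tanycyte markers was 159 to 358 CPM in FGF1 mice and 107 to 148 CPM in vehicle mice, that of 6 COP markers was 169 to 250 against 99.1 to 127 CPM, and that of 6 neuron markers was 102 to 198 against 188 to 485 CPM. The 7 astrocyte markers summed to 5894 to 7314 CPM and 5305 to 6362 CPM, and 6 microglial markers, whose cells hold the genes at high levels, to 62.0 to 175 and 108 to 181 CPM. None of these markers was at 0 in either group.

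In OPC, the oligodendrocyte precursor cells, 1 of the 6 members tested was called, Egr1, and it was higher. Egr1 in OPC ranged from 243 to 447 CPM (median 368) in FGF1 mice and from 104 to 304 CPM (median 155) in vehicle mice. Only vehicle mouse 27 reached into the FGF1 range, and Egr1 was higher in FGF1 in 6 of 6 batches. The log2 fold change was 1.09 ± 0.231 (adjusted p = 0.0212, edgeR), and 1.7% of the 5529 genes tested in OPC were called higher. The 6 members tested in OPC all had positive log2 fold changes (median 0.34), and the other 5 did not pass: Klf6, for example, was 124 to 214 CPM against 84.2 to 137 CPM (0.47 ± 0.158, adjusted p = 0.0863, edgeR). Marker sums in OPC differed in their medians too, and their part in the result was not tested. The 6 COP markers summed to 1333 to 1658 CPM (median 1508) in FGF1 mice and 1632 to 2092 CPM (median 1811) in vehicle mice, the 5 OPC markers to 3392 to 3720 against 3549 to 4033 CPM, the 6 neuron markers to 179 to 317 against 226 to 425 CPM and the 6 microglial markers to 87.0 to 243 against 79.5 to 124 CPM. The 7 astrocyte markers had a median sum of 694 against 1044 CPM, the 6 endothelial markers reached 368 CPM in an FGF1 mouse and at most 114 CPM in a vehicle mouse, and the 7 pericyte markers reached 184 and 56.8 CPM. One of the COP markers was at 0 in every vehicle mouse and 1 of the pericyte markers in every FGF1 mouse, and no other of these markers was at 0 throughout a group.

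Egr1 was also called within cluster 5, which made up 84.4% to 96.9% of the OPC of an FGF1 mouse and 98.7% to 100% of those of a vehicle mouse. There Egr1 was 241 to 461 CPM against 105 to 309 CPM, a log2 fold change of 1.06 ± 0.231 (adjusted p = 0.0313, edgeR), and 1.2% of 5235 genes were called higher. The cluster 5 call passed in 11 of 18 alternatives: leaving out FGF1 mouse 7, 10, 21 or 28 or vehicle mouse 20, 25 or 29 ended it, with an adjusted p of up to 0.0976 (edgeR). With the cluster as a term the value in OPC was 1.08 ± 0.192 (adjusted p = 0.00323, limma), and with the batch as a block in OPC 1.08 ± 0.137 (adjusted p = 3.22e-08, edgeR). Leaving out FGF1 mouse 7 or 10 or vehicle mouse 20 or 25 took the OPC call past the threshold, to an adjusted p of at most 0.0657 (edgeR).

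In the other whole-cell types no member passed by edgeR. Tanycytes had all 10 members tested, 8 of them with a positive log2 fold change (median 0.43 against -0.01 over all genes), and 5.08% of all genes were called there in either direction. Atf3, a stress-induced bZIP factor, was 25.7 to 110 CPM in FGF1 tanycytes and 5.96 to 38.3 CPM in vehicle tanycytes (log2 fold change 1.08 ± 0.409, adjusted p = 0.167, edgeR). Zfp36 in tanycytes was 57.7 to 400 CPM against 63.6 to 133 CPM (0.94 ± 0.408, adjusted p = 0.224, edgeR) and Klf6 72.2 to 197 CPM against 71.3 to 129 CPM (0.55 ± 0.235, adjusted p = 0.200, edgeR). The spread was wide: FGF1 mouse 6 was the highest of all 12 mice and FGF1 mouse 36 the lowest of the FGF1 mice for all 3 genes. FGF1 mouse 6 had 290 tanycytes only, 116 of them in cluster 10. Cluster make-up differed between the groups too: cluster 0 held a median of 62.1% of the tanycytes of an FGF1 mouse and 80.7% of those of a vehicle mouse, and cluster 7 held 22.7% and 10.7%. The part of this make-up in the values was not tested. With the batch as a block, edgeR called Atf3 higher in cluster 0, the main tanycyte cluster (1.104 ± 0.265, adjusted p = 0.0288).

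Ependymal cells had lower means for all 9 members tested (median log2 difference -0.48, against -0.02 over all genes), with none called, where 1.28% of all genes were called in either direction. Dusp1 in ependymal cells was 39.9 to 176 CPM (median 109) in FGF1 mice and 149 to 730 CPM (median 307) in vehicle mice, a log2 fold change of -1.56 ± 0.450 (unadjusted p = 0.0058, adjusted p = 0.155, edgeR). DESeq2 called it (adjusted p = 0.023). Nr4a1 was 12.0 to 119 CPM against 40.4 to 240 CPM (-1.27 ± 0.473, adjusted p = 0.273, edgeR). FGF1 mouse 6 had 19 ependymal cells only, against 170 or more in every other mouse.

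The log2 fold changes were small in endothelial cells (10 tested, -0.30 to 0.51, none called, 0.948% of all genes called), in microglia (10 tested, -0.46 to 0.31, none called, 0.262%) and in oligodendrocytes (7 tested, -0.30 to 0.52, none called, 2.25%). Btg2, the antiproliferative cofactor, was the nearest to a call in both endothelial cells and oligodendrocytes. In endothelial cells it was 801 to 1748 CPM in FGF1 mice against 606 to 1304 CPM in vehicle mice (0.51 ± 0.179, adjusted p = 0.213, edgeR, and 0.0421 with the batch as a block). The oligodendrocytes of the groups also differed in cluster make-up: cluster 11 held a median of 35.6% of those of an FGF1 mouse and 2.46% of those of a vehicle mouse, and cluster 2 held 56.2% and 82.9%. Egr1 in oligodendrocytes was 0.23 ± 0.157 on the log2 scale without the cluster (adjusted p = 0.481, edgeR) and 0.56 ± 0.194 with the cluster as a term (adjusted p = 0.0938, limma). Macrophages, fibroblast-like VLMC, pericytes and COP had 2 to 9 members tested and none called; in the first 3 of these no gene of the 381 to 877 tested was called, and in COP 52 of 4171 were. Over all 11 types, 82 member values were tested, 7 were called and 20 had an unadjusted p under 0.05. Of all genes, 13 of 877 in VLMC to 2625 of 9830 in astrocytes had such a p, and 0 and 1240 of them were called. Over the 14 clusters with a member tested, 99 values were tested, 1 was called (Egr1 in cluster 5) and 15 had an unadjusted p under 0.05. Of all genes, 13 of 877 in cluster 13 to 1863 of 9441 in cluster 0 had such a p, and 0 and 498 of them were called. These totals are not read as a result about the members.

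**Figure D4:**
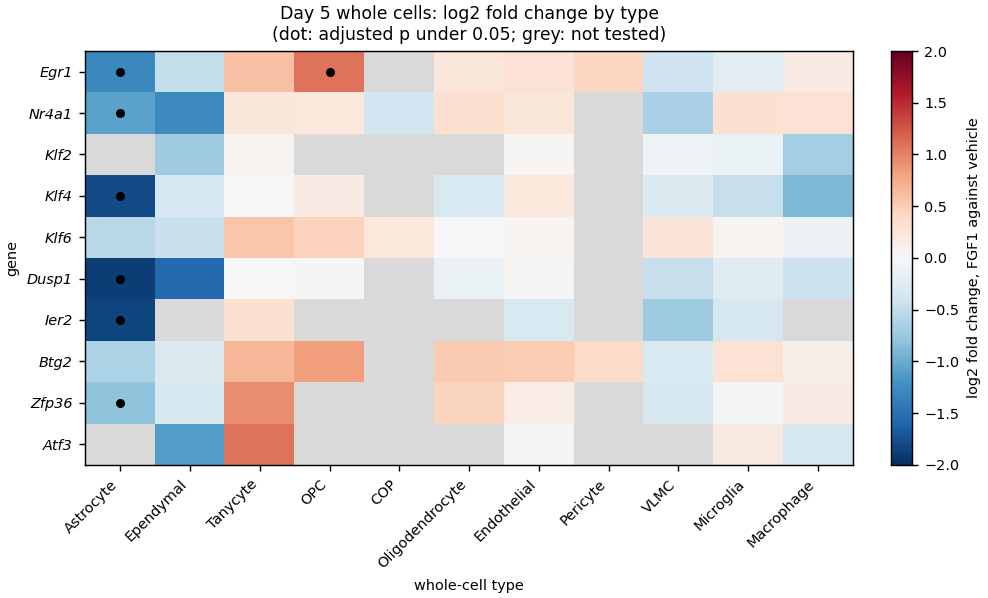
Log2 fold change of FGF1 against vehicle for the 10 genes (rows) in 11 whole-cell types (columns) on Day 5, as a colour from -2 (blue) to 2 (red), with a dot where the adjusted p was under 0.05 (edgeR) and grey where counts were too low to test. In the astrocyte column the 8 tested genes are blue, 6 of them with a dot, and Klf2 and Atf3 are grey; the only other dot is Egr1 in OPC, which is red.

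Whether astrocytes differed from other types was tested directly, pairing the types of each mouse, with the FGF1 effect in astrocytes minus that in the other type. Astrocytes were chosen as the reference because earlier results were known. The effect was lower in astrocytes for 6 of 8 members tested against OPC (6.15% of all genes called lower), 6 of 10 against endothelial cells (1.89%), 6 of 10 against microglia (0.247%), 5 of 10 against tanycytes (7.75%) and 5 of 8 against oligodendrocytes (3.04%). It was lower for 1 of 8 against COP, Klf6 (4.52%), and for 1 of 10 against ependymal cells, Egr1 (3.52%). In all 30 of 64 values passed and none passed in the other direction. A gene entered these fits if either type had enough counts. Atf3, called against tanycytes, was too low for a test in astrocytes alone. Zfp36 and Ier2 were too low in OPC alone, and Ier2 in oligodendrocytes alone. The counts are therefore a description and are not set against the shares of all genes. These comparisons share the astrocyte libraries. The median difference over all genes was between -0.01 and 0.03 but for COP, where it was -0.13.

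Dusp1 differed from OPC by -1.85, from endothelial cells by -1.89 and from microglia by -1.76 on the log2 scale (adjusted p = 6.35e-06, 3.36e-08 and 7.32e-08, edgeR). Against ependymal cells the Dusp1 difference was -0.52 (adjusted p = 0.127, edgeR), so astrocytes and ependymal cells, which both had lower Dusp1 means, were not told apart by this gene. Egr1 differed by -2.39 from OPC (adjusted p = 0.00685, edgeR) and by -0.87 from ependymal cells (adjusted p = 9.51e-04, edgeR). Klf2, the laminar-flow-responsive Krüppel-like factor of endothelium, passed against none of the 4 types in which it could be tested, with log2 differences of -0.19 to 0.38. The cluster make-up described for astrocytes enters all of these values.

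In whole cells of Day 5 vehicle mice the highest means were in microglia, macrophages, endothelial cells, pericytes and VLMC. In Day 5 vehicle nuclei such an order was not visible. Egr1 had 1 UMI there in microglia and 2 in astrocytes, and Klf6 averaged 8.93 and 9.20 CPM. These nuclear counts were too few to compare types. The levels that follow are those of whole cells. Egr1 was 2797 ± 2165 CPM (SD, n = 4) in VLMC, 2289 ± 412 CPM (n = 6) in microglia and 302 ± 96.8 CPM in astrocytes, and its lowest level, 64.4 ± 46.6 CPM, was in COP. Klf2 was highest in endothelial cells, at 640 ± 117 CPM, and lowest in oligodendrocytes, at 4.87 ± 2.35 CPM. Klf4 was also highest in endothelial cells, at 765 ± 91.5 CPM, and Atf3 in microglia, at 1141 ± 398 CPM, with 3.53 ± 4.09 CPM in OPC. Zfp36 and Btg2 were highest in microglia, at 1420 ± 256 and 1495 ± 301 CPM, Dusp1 and Klf6 in macrophages, at 1206 ± 331 and 632 ± 398 CPM (n = 4), and Nr4a1 and Ier2 in VLMC, at 611 ± 635 and 432 ± 413 CPM (n = 4).

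Most neighbours in the order of the levels did not differ beyond their spread. For each gene the 11 types form 10 neighbouring pairs, and the ranges of vehicle mice overlapped in 8 to 10 of them. The pairs that did not overlap were pericytes over the type below them for Klf2, Btg2 and Zfp36, microglia over endothelial cells for Klf6, and ependymal cells over astrocytes for Zfp36. In every gene the 5 highest types were microglia, macrophages, endothelial cells, pericytes and VLMC, in varying order.

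Across the 11 types the members resembled the AP-1 gene Jun. Among the 332 genes tested in all types, the Pearson correlation of log2 mean vehicle CPM (plus 1) with Jun was 0.95 for Egr1, 0.96 for Ier2 and Klf2, 0.95 for Zfp36 and 0.94 for Klf6, Dusp1 and Btg2, and Jun was one of the 2 nearest for 8 of the 10 genes. Egr1 was next most like Fos (0.94), and Nr4a1 was most like Gnai2 (0.96). All points come from the same 6 suspensions, and several of the nearest genes, such as Rps27 and Rpl34, encode ribosomal proteins, so these values are descriptive.

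Other early response genes were read from 3 lists chosen with earlier results known: A, 7 AP-1 genes; B, 30 further early and ERK or SRF response genes; C, 20 heat shock and stress genes. In Day 1 astrocyte nuclei the 2 genes of list A that were tested rose (Jun by 5.01 ± 0.815 and Fos by 2.41 ± 0.486 on the log2 scale), 1 of 9 of list B (Trib1, a pseudokinase, by 5.18 ± 0.592) and 3 of 11 of list C (Hspb1, Nfkbiz and Socs3). In Day 1 tanycyte nuclei Jun, Trib1 and Socs3 rose, 1 of 1, 1 of 3 and 1 of 9 tested. Genes low in vehicle mice, such as Jun with 3 UMIs in astrocyte nuclei and 2 in tanycyte nuclei, passed the filter only through the FGF1 mice, so these counts are no support for the lists. No gene of these lists fell in either. Of all genes tested, 1.39% were called higher in these astrocyte nuclei and 5.38% in these tanycyte nuclei.

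In Day 5 whole-cell astrocytes 3 of 5 tested genes of list A fell: Fos from 1561 to 548 CPM on average, Fosb from 93.9 to 33.1 CPM and Junb from 97.2 to 33.0 CPM. Of list B, 2 of 15 fell, Dusp6, the ERK phosphatase, by 1.30 ± 0.169 on the log2 scale and Trib1 by 1.00 ± 0.207, and of list C, 2 of 15, Nfkbia and Nfkbiz, which act in NF-κB feedback and are not heat shock proteins, beside 6.06% of all genes called lower there. None of the 3 lists had a gene called within cluster 1 or within cluster 4. In OPC Fos rose by 0.52 ± 0.128 and 2 of 10 of list C rose (Hspa8 and Hsp90aa1). In tanycytes 2 of 17 of list C rose (Hspa8 and Hsp90ab1) with none of lists A and B, and in ependymal cells Hsp90ab1 rose (1 of 14 of list C) and Per1 fell (1 of 12 of list B). In oligodendrocytes Dnaja1, a heat shock co-chaperone, rose by 0.58 ± 0.115 (1 of 12 of list C), with none called of lists A and B. No gene of the 3 lists was called in endothelial cells or microglia. Of all genes tested, 1.7% were called higher in OPC, and 5.08% in tanycytes, 1.28% in ependymal cells and 2.25% in oligodendrocytes were called in either direction.

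The same types were higher in the tested members as whole cells than as nuclei on Day 5. In vehicle mice, 9 members could be tested in astrocytes and all were called higher in whole cells (19.3% of all genes called higher), 7 of 7 tested in oligodendrocytes (33.7%), 7 of 8 in OPC and COP together (26.6%) and 10 of 10 in microglia (28.4%). Most of them passed the filter on low counts only through the whole-cell libraries, so these counts are a description and not set against the shares of all genes. The median log2 difference over all genes was between -0.26 and 0.26. Egr1 in astrocytes was 321 ± 104 CPM (204 to 438, n = 6, TMM-scaled over both assays) in whole cells and 0 and 2.52 CPM in the 2 nuclei libraries. Egr1 in microglia was 2057 ± 342 CPM in whole cells and 0 and 4.47 CPM in nuclei, and Klf6 in astrocytes, the best counted in nuclei, was 98.5 ± 34.5 against 9.20 ± 4.81 CPM.

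Most of these members had 3 UMIs or fewer over both nuclei libraries: 6 of 9 in astrocytes, 5 of 7 in oligodendrocytes, 6 of 8 in OPC and COP and 9 of 10 in microglia. Their fitted fold changes are therefore no bounds. With such genes set to 3 UMIs over both libraries, the median log2 ratio of the tested members was at least 3.68 in astrocytes, 3.00 in oligodendrocytes, 1.90 in OPC and COP and 5.73 in microglia. The lowest ratio so computed was 1.32 in astrocytes, 2.11 in oligodendrocytes, 0.217 in OPC and COP and 4.93 in microglia. The members with more than 3 nuclear UMIs in astrocytes were Dusp1 (log2 fold change 4.36 ± 0.617, adjusted p = 2.41e-06, edgeR), Btg2 (3.68 ± 0.663, adjusted p = 1.95e-04, edgeR) and Klf6 (3.15 ± 0.724, adjusted p = 0.00263, edgeR). Warm dissociation, the cohort, the mouse supplier, the dissected region, cytoplasmic RNA and the counting of introns differed between these assays all at once. They cannot be told apart.

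**Figure D5:**
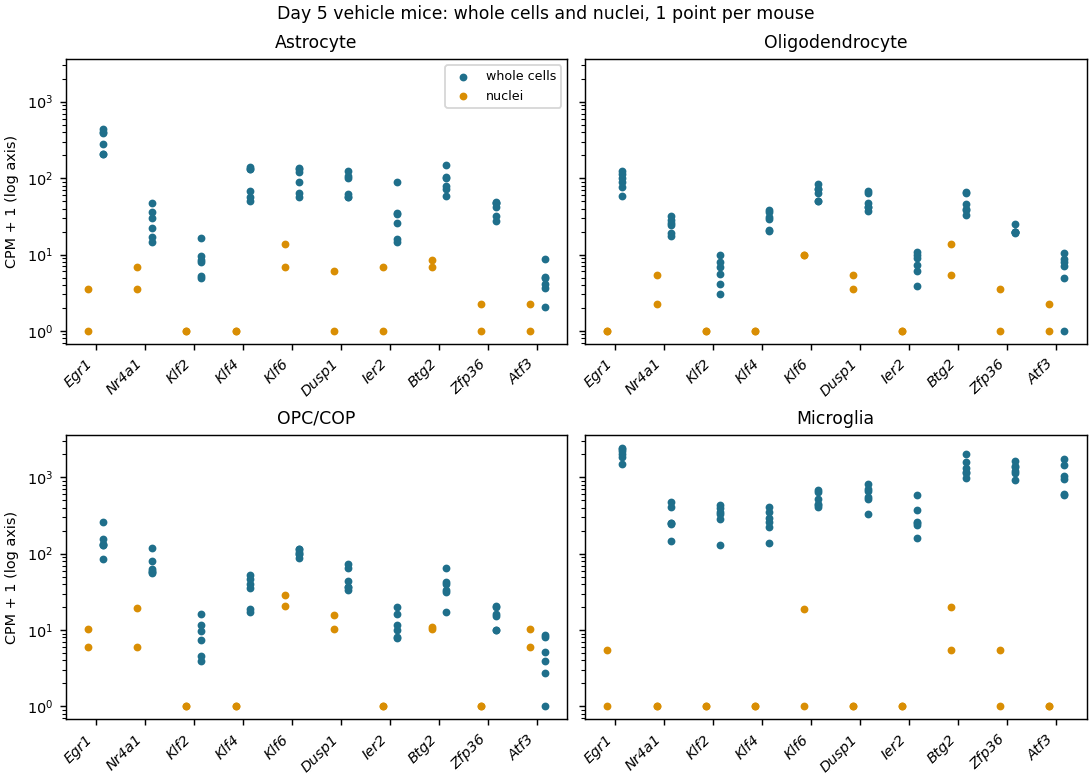
The 10 genes in Day 5 vehicle mice as whole cells (blue, 6 mice) and nuclei (orange, 2 mice) for 4 cell types, with 1 point per mouse as CPM plus 1 on a log axis. Whole-cell astrocytes lie above both nuclei libraries for every gene but Atf3, which was not tested in astrocytes, and nuclei at 1 on the axis had no UMI. Values of different genes are not scaled for gene length.

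The 6 genes called lower in FGF1 astrocytes averaged 25.4 to 302 CPM in vehicle whole-cell astrocytes, while in Day 5 vehicle astrocyte nuclei the same 6 had 11 UMIs in all over 241 nuclei. In Day 5 FGF1 astrocyte nuclei, 110 and 384 in the 2 mice, Dusp1 and Zfp36 had 3 UMIs each and Nr4a1 had 2. Egr1 and Klf4 had 1 each there and Ier2 had 0. None of the 6 had enough counts to be tested in these nuclei. Whether the differences seen in whole-cell astrocytes were present there was therefore not tested.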

How the data were processed

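Droplet libraries, each from 1 mouse, were sequenced and the authors counted UMIs with Cell Ranger 1.2 on mouse GRCm38/mm10, introns included for nuclei. They clustered cells in Seurat and removed doublets with Scrublet from whole cells only. No doublet step was added here, nor is one stated for nuclei. The deposited tables hold raw counts per gene and barcode, and the deposited metadata give mouse, batch and cell type or cluster. The deposited whole-cell metadata also give the percent of mitochondrial and ribosomal UMIs, as computed by the authors from the counts of each cell before deposit. For nuclei the percent of mitochondrial and ribosomal UMIs was computed here from the raw counts. For each mouse, the counts of all barcodes of a type or cluster were added up (at least 10 cells per mouse and 2 mice per group) and fitted over all genes with edgeR 4.0.16 in R 4.3.3 (filterByExpr, TMM, robust quasi-likelihood test, Benjamini-Hochberg adjusted p under 0.05 within a type). DESeq2 1.42.0 and limma 3.58.1 gave alternatives. Nuclei counts include barcodes above the limit that the study states, 845 above 5% in nuclei and 4382 above 20% in whole cells.

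Astrocytes were compared with each of 7 other types in a fit of its own with the mouse as a block. The assays were compared on genes present in both tables. Named genes are all 10 members and, from 3 lists of related genes, those past the threshold. The members, the lists and the astrocyte reference were chosen with earlier results of these data known. Alternatives were DESeq2, RLE scaling, no filter, 20 cells per mouse, barcodes within the limit, replicate or batch blocks and leaving out each mouse. The script was tested on simulated counts. The floor for a gene at 0 is 3 counts over the group and covers counting error only.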

Additional observations from a re-analysis of the deposited data

Results flagged for a closer look

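Of 40 groups of 4 to 6 mice examined for a single mouse far from the others, 3 held one, and chance gives about 1 in 20. Ier2 in astrocytes of vehicle mouse 22 was 83.0 CPM against 13.04 CPM in the lowest vehicle mouse. Nr4a1 in ependymal cells of vehicle mouse 20 was 240.0 CPM, and Zfp36 in oligodendrocytes of vehicle mouse 20 was 21.9 CPM, each the highest of its group.

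The FGF1 effect in Day 5 whole-cell astrocytes differed from that in another type, by the edgeR test of the difference itself, for 6 members against OPC, 6 against microglia, 6 against endothelial cells, 5 against tanycytes, 5 against oligodendrocytes, 1 against ependymal cells and 1 against COP. Every one of these differences was negative, and all rest on the same astrocyte libraries, in which cluster 4 is a larger share after FGF1. The part of that share in the differences was not tested. Some of these members had too few counts for a test of their own in astrocytes or in the other type.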

How the results depend on the processing

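No member value that was called changed sign under any alternative run. In Day 1 nuclei 3 member values were called, against 5 by DESeq2, 10 without the filter on low counts and 1 with only barcodes within the 5% limit, where Egr1 fell under the filter. Leaving out 1 mouse gave 2 to 4. Replicate numbers did not pair the Day 1 mice: the correlations of same-numbered mice in astrocyte nuclei were -0.139, -0.504 and 0.522. Those of same-batch mice were -0.663, 0.0701 and -0.576. In Day 5 whole cells, same-batch correlations ran from -0.111 to 0.267 in astrocytes and from -0.0992 to 0.132 in OPC. Same-batch mice thus did not consistently deviate together, and values with the batch as a block are alternatives only. With a replicate block 3 values were called, as without it. In Day 5 nuclei and for the difference between days 0 were called under every alternative run; 12 fits without 1 mouse could not be made for small neuron types. By whole-cell type 7 were called, and 1 with the cluster as a term, an alternative chosen after seeing the data; leaving out 1 mouse gave 4 to 8. By cluster 1 was called, against 3 by DESeq2, 2 without the filter and 6 with the batch as a block. Leaving out 1 mouse gave 0 to 2 by cluster: 0 without FGF1 mouse 7, FGF1 mouse 10 or vehicle mouse 20, and 2 without vehicle mouse 35. These totals count any member. The Egr1 call in cluster 5 also ended without FGF1 mouse 21 or 28 or vehicle mouse 25 or 29. Between astrocytes and other types 30 were called, 27 to 40 under the alternatives and 22 to 35 without 1 mouse. Between assays 33 were called, and 16 when 20 cells per mouse were required. At that limit microglia and OPC with COP were not fitted, as vehicle mouse 38 had 18 and 17 such nuclei. Other causes were not tested. In nuclei, counts of a few UMIs per group limit what can be seen.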
